A study of Mus musculus with 6 samples.

Results

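The Igf1 locus of the mouse is described here by its DNase I hypersensitive sites, stretches of accessible DNA, in the livers of fasted and fed C57BL/6 mice. Hotspots of all libraries that overlapped by at least 1 bp were merged into regions, and the members are the 20 regions, of 75169 in all, that overlap a window of 250 kb holding Igf1 and its flanks (mm9, chr10:87200000-87450000). They are called sites 1 to 20 here, in order of rising coordinate. The compared groups were 3 libraries from mice fasted for 24 h and 3 from mice fed ad libitum. Both groups were kept under the same light cycle, killed at lights on, and had nuclei of fresh whole liver cut with DNase I at 40 U/ml. The labels number the replicates but do not tie each to its own animal. The p-values therefore cover the spread among these libraries only, part of which may be technical.

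Igf1 encodes insulin-like growth factor 1, a circulating growth hormone mediator that is made mainly by hepatocytes. In liver, growth hormone binds its receptor and activates the kinase JAK2 and the transcription factor STAT5B, which binds enhancers spread over the Igf1 locus. Food deprivation is known to lower circulating IGF1 and to make the liver less responsive to growth hormone. Gene positions in the build of the files were not used here. Sites are therefore given by coordinate and not as promoter, exon or intron, and the labelled tissue was not checked against the sites of liver genes.

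The libraries held 49682, 63476 and 50620 hotspots in fasted replicates 1 to 3 and 51609, 50990 and 63105 in fed replicates 1 to 3. Depth was read from the step of the densities, taking it as 1 tag and all libraries as scaled to a common total. On that reading fasted replicate 2 was sequenced 1.90 times and fed replicate 3 1.64 times as deeply as fed replicate 2, which had the least depth. The scale is unstated, so every statement on depth here depends on that reading. In bulk liver, open chromatin in fewer cells and weaker opening in each cell cannot be told apart.

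In fasted livers 4 sites of the Igf1 locus were less accessible than in fed livers, and the largest loss left a site with 16.4% of its mean fed density. Of the 20 sites, 13 were called in all 6 libraries (65.0%, against 49.3% of all regions). Of these 13, sites 1, 6, 14 and 17 fell and none rose (limma, Benjamini-Hochberg adjusted p under 0.05 over all 37044 regions called in every library). The 4 fallen sites are 30.8% of the 13, and 7.84% of all shared regions fell. Against the 0 that rose, 7.89% of all shared regions rose (2921 higher and 2905 lower). On densities as deposited, with no centring of the libraries, 1946 rose and 3189 fell over all regions, and 0 rose and 5 fell among the 13. At an unadjusted p under 0.05, 2 of the 13 (sites 10 and 11) were higher. Fasted minus fed, the log2 fold change had a median of -0.12 over the 13 sites and 0.03 over all shared regions. On centred log2 densities, fasted libraries all lay below the fed ones at 5 of the 13 sites, against 14.6% of all shared regions, and all above them at 3, against 16.8%.

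**Figure D1:**
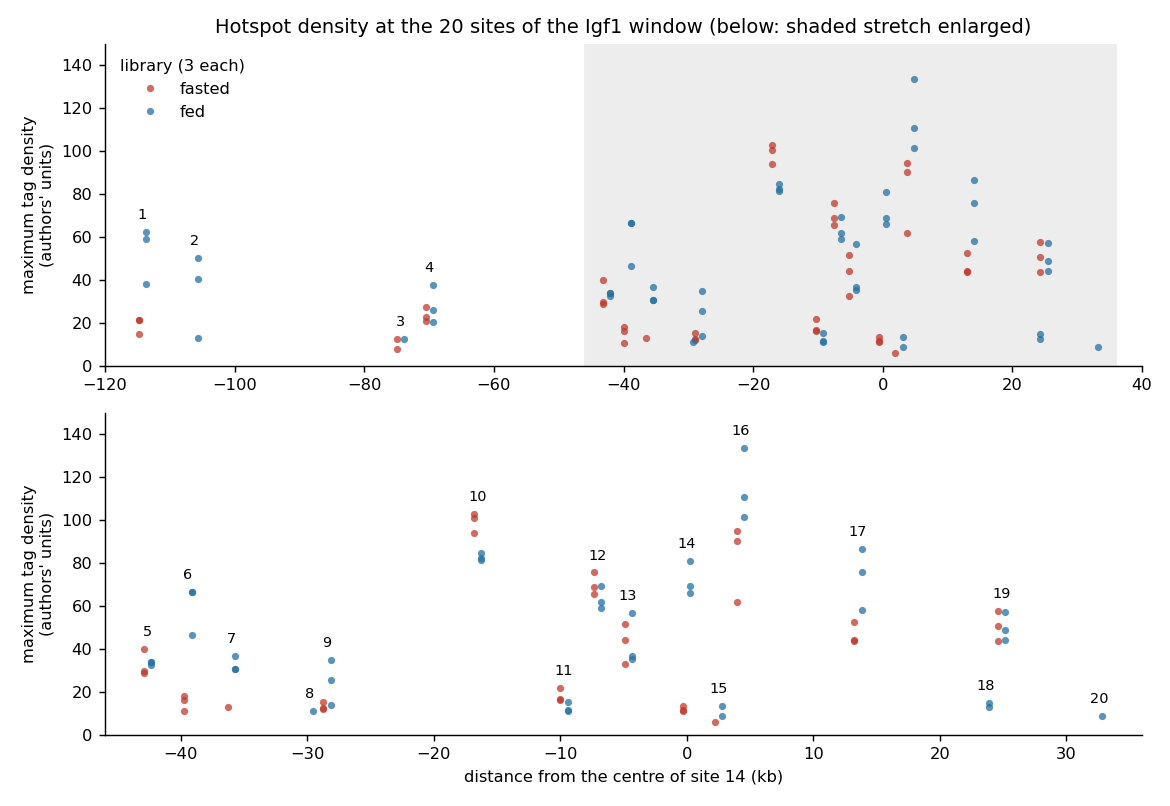
Maximum tag density (authors' units) of each called site in each library, against the distance in kb from the centre of site 14, with fasted libraries in red and drawn slightly left of fed libraries in blue. The lower panel enlarges the shaded stretch; a site with no point for a library was not called there. At sites 1, 6 and 14 the fasted points lie far under the fed points, while the points of both groups overlap at sites 12, 13 and 19.

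Site 14 (mm9, chr10:87364404-87365378) lost the most accessibility in the window. Its maximum tag density, the authors' measure of the height of a hotspot, was 11.3, 13.2 and 10.9 in fasted replicates 1 to 3, against 80.9, 65.9 and 69.1 in fed replicates 1 to 3. Every fasted library lay far below every fed one, and the group means were 11.8 ± 1.23 in fasted and 72.0 ± 7.88 in fed livers (SD, n = 3 each). The log2 fold change was -2.44 (SE 0.19, limma adjusted p = 5.2e-08), which ranks 33 from the lowest among the 37044 shared regions. In tags the heights were 40, 67 and 36 in fasted and 220, 176 and 302 in fed libraries. The fasted heights thus rest on fewer tags than the fed ones and carry larger relative counting errors. Over the whole lists, the median hotspot height was 57, 52 and 55 tags in fasted replicates 1 to 3. The called hotspot was shorter in fasted livers, at 517, 647 and 336 bp, against 855, 903 and 890 bp in fed livers. Length and height come from the same call, so the length is no separate support. The average density over the hotspot, a second measure of the same calls, was 5.11 ± 0.15 in fasted and 26.9 ± 3.32 in fed livers (SD, n = 3 each).

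Site 6 (chr10:87324570-87326350) fell nearly as far. Its density was 17.9, 10.9 and 16.3 in fasted replicates 1 to 3, against 66.6, 46.5 and 66.6 in fed replicates 1 to 3. The groups did not overlap, and the log2 fold change was -1.86 (SE 0.20, limma adjusted p = 1.8e-06). The site joins a pair of hotspots that were called apart in every library but fed replicate 3. In a fit without that library, chosen after the data were seen and with regions rebuilt from the other lists, the part at higher coordinates (87325386 to 87326289) had a log2 fold change of -1.77 (limma adjusted p = 3.0e-05). The part at lower coordinates (87324570 to 87325371) had one of -0.47, which did not pass (limma adjusted p = 0.24). The low part stood at 13.9, 10.9 and 14.2 in fasted libraries, against 17.3 and 21.7 in fed replicates 1 and 2.

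Site 1 (chr10:87250076-87251172) is the called site nearest to the low edge of the window, and its centre lies 114 kb from that of site 14. Its density was 21.3, 14.8 and 21.2 in fasted replicates 1 to 3, against 62.5, 38.2 and 59.3 in fed replicates 1 to 3. The highest fasted library stood well under the lowest fed one, fed replicate 2. The log2 fold change was -1.35 (SE 0.20, limma adjusted p = 8.1e-05). The hotspot of the same calls spanned 733, 720 and 688 bp in fasted and 982, 889 and 1097 bp in fed libraries, without overlap between the groups. How often lengths separate over all shared regions was not computed.

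Site 17 (chr10:87377763-87379103) had a smaller loss. Its density was 44.0, 43.6 and 52.7 in fasted replicates 1 to 3, against 86.8, 75.7 and 58.4 in fed replicates 1 to 3, where fed replicate 3 came close to the highest fasted library. The log2 fold change was -0.56 (SE 0.16, limma adjusted p = 0.022). This call was lost without fasted replicate 1 (limma adjusted p = 0.10), fed replicate 1 (0.13) or fed replicate 2 (0.099), and with average density (0.12), relative depth as a covariate (0.072), no mean-variance trend (0.055), or uncalled libraries set to their own lowest listed density (0.075). The losses at sites 1, 6 and 14 kept their calls under every alternative in which those sites could be tested.

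**Figure D2:**
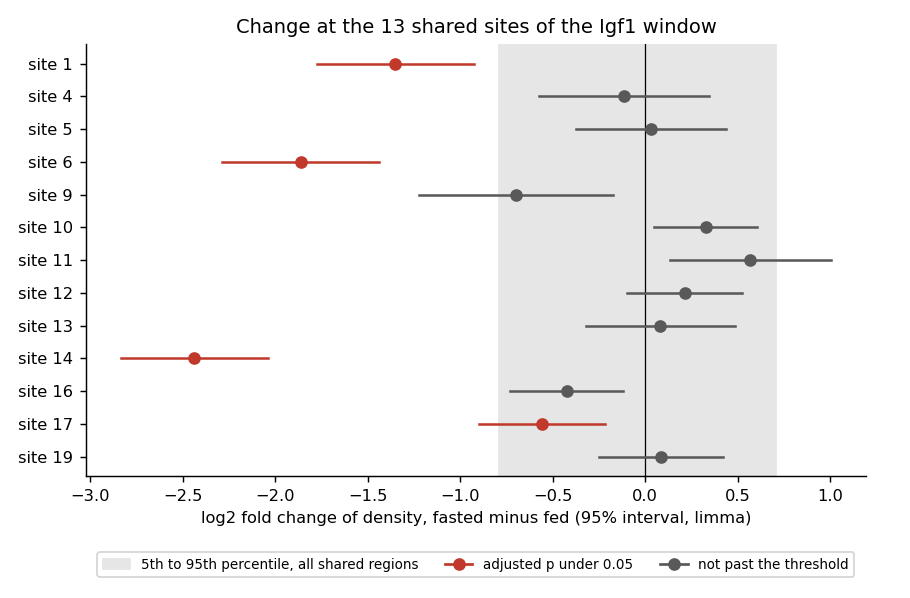
Log2 fold change of density, fasted minus fed, at the 13 sites called in all 6 libraries, with 95% intervals from limma and, in grey, the range from the 5th to the 95th percentile of all shared regions. Sites 1, 6 and 14 lie left of the grey range, at -1.35, -1.86 and -2.44, and site 17 passes the threshold inside it.

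The 3 sites with the highest mean density over all 6 libraries, sites 16, 10 and 12, did not pass the test. That mean places sites that fell lower than fed livers do, where sites 17 (73.6 ± 14.3) and 14 (72.0 ± 7.88) stood above site 12 (63.5 ± 5.26; SD, n = 3 each). Site 10 (chr10:87347627-87349032) stood at 103, 93.9 and 101 in fasted replicates 1 to 3, against 82.4, 81.7 and 84.7 in fed replicates 1 to 3. Every fasted library was slightly higher, but the log2 fold change of 0.33 did not pass (95% interval 0.05 to 0.61, limma adjusted p = 0.11). Site 16 (chr10:87368107-87370217), the densest over all 6 libraries, stood at 90.5, 62.0 and 94.7 in fasted replicates 1 to 3, against 134, 111 and 101 in fed replicates 1 to 3. Its fasted libraries all lay below the fed ones, and its log2 fold change of -0.42 missed the threshold narrowly (95% interval -0.73 to -0.12, limma adjusted p = 0.054). It passed with quantile normalization (0.014) and among the upper 50% of regions by density (0.024). Over all alternatives its adjusted p ran up to 0.23, without fed replicate 1 (log2 fold change -0.33), and the fold change was -0.29 without fasted replicate 2 (limma adjusted p = 0.17) and -0.29 with relative depth as a covariate (0.20). Site 12 (chr10:87356914-87358803) stood at 68.9, 65.5 and 75.7 in fasted and 59.2, 61.8 and 69.3 in fed replicates 1 to 3, where the deposited densities of the groups overlap. Its log2 fold change was 0.21 (95% interval -0.10 to 0.53, limma adjusted p = 0.39). By mean density, sites 16, 10 and 12 stand at the 93.0th, 91.6th and 84.9th percentiles of all shared regions.

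The order of the sites within a library therefore differed between the groups. Site 10 was the highest site of the window in all 3 fasted libraries, and site 16 was the highest in all 3 fed libraries. Taken as a percentage of site 10 in the same library, which needs no scaling between libraries, site 14 stood at 11.0, 14.1 and 10.8% in fasted and 98.2, 80.7 and 81.6% in fed replicates 1 to 3. On that measure site 6 averaged 15.0 ± 3.1% in fasted and 72.1 ± 13.2% in fed livers, and site 1 averaged 19.1 ± 2.9% in fasted and 64.2 ± 15.4% in fed livers (SD, n = 3 each). Site 12 averaged 70.6 ± 4.1% in fasted and 76.5 ± 5.1% in fed livers, a difference of the order of the spread between replicates. With average density in place of maximum density, site 12 averaged 67.8 ± 1.2% in fasted and 78.5 ± 4.3% in fed livers, without overlap. Site 5 likewise separated there, at 30.7 ± 2.0% in fasted and 48.2 ± 5.2% in fed livers. Sites 4, 11, 13 and 19 overlapped between the groups on both measures. These percentages were chosen after the densities were seen and carry no test. They show unequal change within the locus, and not that site 10 itself was constant. Site 10 was taken for its highest mean in fasted livers. Its density was higher in every fasted than in every fed library, which lowers the fasted percentages of the other sites. Site 12 thus has the lower percentage in fasted livers, though its mean density was 70.0 in fasted and 63.5 in fed livers.

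**Figure D3:**
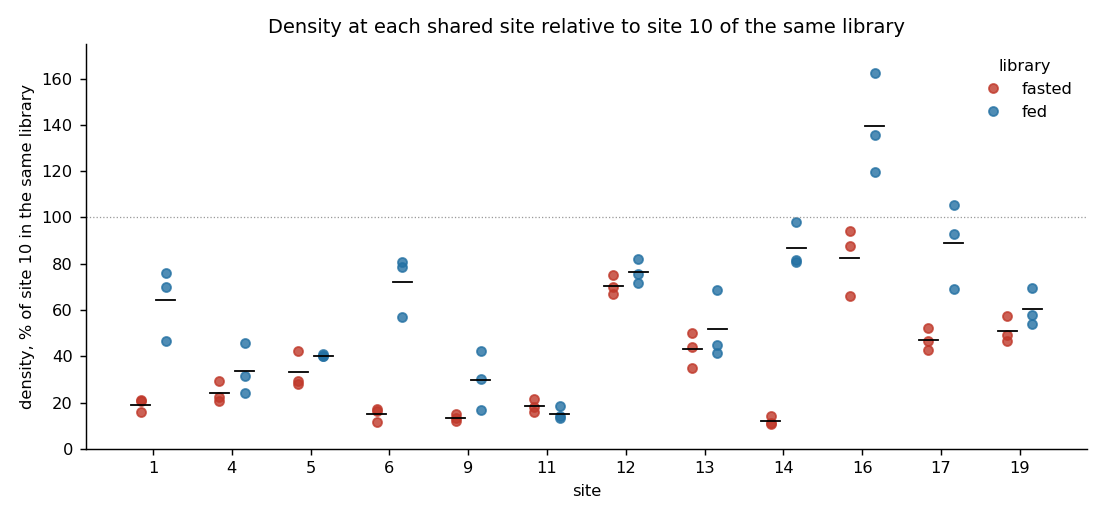
Maximum tag density of each other shared site as a percentage of site 10 in the same library, with fasted libraries (red) left of fed libraries (blue) and black bars at the group means. Site 14 lies between 10.8 and 14.1% in fasted and between 80.7 and 98.2% in fed libraries, while sites 4, 5, 11, 12, 13 and 19 overlap between the groups.

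The other shared sites did not pass the test in either direction. Sites 5, 13 and 19 had log2 fold changes of 0.03, 0.08 and 0.09, and site 4 one of -0.12. Site 19 (chr10:87389096-87390421) averaged 50.7 ± 7.01 in fasted and 50.2 ± 6.66 in fed livers, and site 4 (chr10:87294545-87295320) averaged 23.8 ± 3.34 in fasted and 27.9 ± 8.75 in fed livers (SD, n = 3 each). Their 95% intervals ran from -0.37 to 0.44 at site 5, from -0.32 to 0.48 at site 13, from -0.25 to 0.42 at site 19 and from -0.58 to 0.34 at site 4, so of these 4 intervals the one at site 4 alone reaches the size of the site 17 loss. Site 13 (chr10:87359750-87360763) lies between sites 12 and 14, with 3.64 kb to site 14, and stood at 51.6, 32.8 and 44.2 in fasted and 56.6, 36.7 and 35.2 in fed replicates 1 to 3. Its groups overlapped fully beside the largest loss of the window.

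Site 11 (chr10:87354789-87355559), a weak site, leaned the other way. It stood at 16.2, 16.8 and 21.8 in fasted replicates 1 to 3, against 15.1, 11.6 and 11.2 in fed replicates 1 to 3, with no overlap. Its log2 fold change of 0.57 did not pass (95% interval 0.13 to 1.00, limma adjusted p = 0.071), but did with quantile normalization (0.048) and without the mean-variance trend (0.047). With average density it was 0.33 (limma adjusted p = 0.21, the highest over all alternatives), and pseudocount 10 gave 0.37 (0.066). Site 9 (chr10:87336101-87336805) stood at 12.2, 12.4 and 15.1 in fasted replicates 1 to 3, against 34.9, 13.9 and 25.6 in fed replicates 1 to 3. The groups overlapped through fed replicate 2, and the log2 fold change was -0.70 (95% interval -1.22 to -0.18, limma adjusted p = 0.064). Without fed replicate 2 it was -1.04 and passed (limma adjusted p = 0.0041), and without fed replicate 1 it was -0.44 and did not (limma adjusted p = 0.34). It also passed with average density (0.036) and with no centring (0.045).

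Site 5 (chr10:87320121-87324367), the widest of the window at 4247 bp, holds 3 hotspots in every library but fasted replicate 2, which called a single hotspot of 4211 bp. In those 5 libraries its value is that of the hotspot at the low end. In a fit without fasted replicate 2 and with regions rebuilt, chosen after the data were seen, the middle hotspot (87321359 to 87322732) stood at 16.5 and 15.4 in fasted replicates 1 and 3, against 26.8, 31.5 and 27.7 in fed replicates 1 to 3. Its log2 fold change there was -0.79 (limma adjusted p = 0.011). The hotspots at the low and the high end had log2 fold changes of -0.17 and 0.01 in that fit and did not pass (limma adjusted p = 0.61 and 0.99). For the middle hotspot only 2 fasted libraries give a value.

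The remaining 7 sites were missing from at least 1 list. Site 2 (chr10:87258194-87259107) was called in all 3 fed libraries and in no fasted library, as were 1.57% of all 75169 regions, while no site was called in all fasted and no fed libraries, as were 1.17%. Its density was 40.5, 13.1 and 50.4 in fed replicates 1 to 3, with fed replicate 2 far below the others. Its neighbour across 7.02 kb is the fallen site 1. The lists hold called hotspots only, so its density in fasted livers is unknown. The lowest called densities anywhere in the window were 11.3, 6.12 and 10.9 in fasted replicates 1 to 3. Calls elsewhere reached lower, with 5th percentiles of 4.54, 2.96 and 4.54 over the whole lists. The window values therefore set no limit on the density of site 2.

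Site 7 (chr10:87328134-87329702) was called in 1 fasted library, replicate 1, at a density of 13.1, and in all fed libraries at 30.5, 36.7 and 30.7. It lies 1.78 kb from the fallen site 6. Where it was called in fasted livers the hotspot was 543 bp long, against 1359, 1296 and 1569 bp in fed replicates 1 to 3. It was not in the main test, since 2 fasted values are unknown. In the alternative that set uncalled libraries to their own lowest listed density, sites 2, 3, 7 and 15 were tested too, and sites 2 and 7 passed as lower (limma adjusted p = 0.0027 and 0.039). With 3 filled-in fasted values at site 2 and 2 at site 7, the filling fixes the direction, so these are no measured losses. Sites 3 and 15 did not pass there (limma adjusted p = 0.67 and 0.52).

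The other 5 were weak. Site 3 (chr10:87290225-87290731) was called in fasted replicates 2 and 3, at 7.70 and 12.4, and in fed replicate 2, at 12.7. Site 15 (chr10:87367168-87367600) was called in fasted replicate 2, at 6.12, and in fed replicates 2 and 3, at 13.5 and 8.93. Site 18 (chr10:87388199-87388828) was called in no fasted library and in fed replicates 2 and 3, at 12.7 and 14.9. Site 8 (chr10:87334717-87335352) and site 20 (chr10:87397304-87397632), the last before the high edge of the window, were called in no library but fed replicate 3, at 11.0 and 8.93. Among these 5, every site but site 3 has more fed than fasted calls, yet fed replicate 3, one of the deepest libraries, supplies 4 of the 6 fed calls at those sites, and the part of depth in this was not tested.

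**Figure D4:**
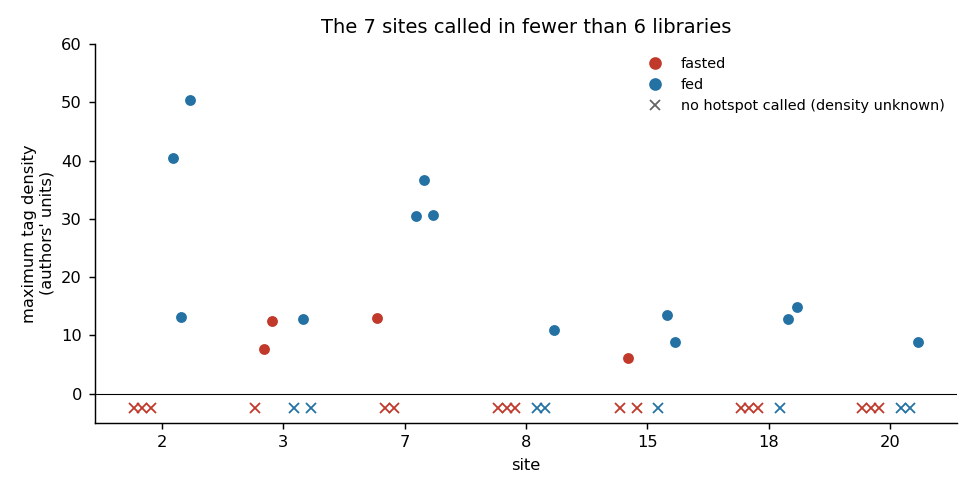
Maximum tag density (authors' units) at the 7 sites called in fewer than 6 libraries, with fasted libraries (red) left of fed libraries (blue). Crosses under the axis mark libraries without a call, where the density is unknown; site 2 has 3 fasted crosses and fed points at 40.5, 13.1 and 50.4.

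Summed over the window, fasted libraries held fewer hotspots. They numbered 17, 16 and 17 in fasted replicates 1 to 3, against 18, 21 and 21 in fed replicates 1 to 3. These counts depend on how stretches were split. Fasted replicate 2 called site 5 as 1 hotspot, where the other libraries called 3. Fed replicate 3 called site 6 as 1 hotspot, where the other libraries called 2. Called sites numbered 14.3 ± 0.58 in fasted and 17.3 ± 2.08 in fed livers (SD, n = 3 each), and the hotspots covered 16.4 ± 1.29 kb in fasted and 18.8 ± 2.43 kb in fed livers. The covered lengths overlapped, at 16.1, 17.8 and 15.3 kb in fasted replicates 1 to 3 and 17.0, 18.0 and 21.6 kb in fed replicates 1 to 3. Over all regions, hotspots covered 42.4, 55.7 and 42.0 Mb in fasted and 41.1, 42.0 and 55.7 Mb in fed replicates 1 to 3. Fasted replicate 2, the deepest library of all, called 15 sites, as many as fed replicate 1 (15) and fewer than fed replicate 2 (18), the shallowest. Fed replicate 3, next in depth after fasted replicate 2, called the most sites (19). Fasted replicates 1 and 3 called 14 each. The part of depth in these counts was not tested.

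The edges of the window were set by coordinate. The nearest region outside its low edge (chr10:87182388-87183368, 16.6 kb away) stood at 8.23, 6.12 and 7.26 in fasted and 18.4, 12.4 and 10.3 in fed replicates 1 to 3, and the nearest outside its high edge (chr10:87519478-87520354, 69.5 kb away) at 5.67, 6.71 and 6.96 in fasted and 8.83, 5.62 and 6.64 in fed replicates 1 to 3. In the adjoining 250 kb of lower coordinates, 4 of 12 shared regions fell and 1 rose. The strongest loss there, 17.9 kb from the window (chr10:87180821-87182088), had densities of 33.2, 30.8 and 31.2 in fasted replicates 1 to 3, against 161, 145 and 119 in fed replicates 1 to 3. Its log2 fold change was -2.05 (SE 0.15, limma adjusted p = 3.0e-08). In the adjoining 250 kb of higher coordinates there were 4 shared regions, of which 0 passed in either direction. The share of fallen regions was thus 30.8% in the window and 33.3% in the flank of lower coordinates. All 4 fallen flank regions lay 16.6 to 32.5 kb from the window, and the risen one lay 218 kb away. The nearest region outside the low edge is among the 4 (log2 fold change -0.74, limma adjusted p = 0.031). The flank's share thus comes from its end beside the window. By share alone, nothing here sets the Igf1 window apart from that flank.

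Outside the window, 1946 shared regions of chromosome 10 were compared with site 14 by Pearson correlation of their centred log2 densities over the 6 libraries, as a description. The most alike were chr10:96205470-96206364, chr10:62835984-62836806 and chr10:125437674-125438672, with correlations of 0.999, 0.995 and 0.993. In each, as at site 14, the 3 fasted values lie apart from and below the 3 fed ones. The choice by correlation with site 14 brings this about, so it is no further result. The first averaged 13.2 in fasted and 51.3 in fed livers, a log2 fold change of -1.80.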

How the data were processed

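Per the labels' protocols, DNase I (40 U/ml) was applied to liver nuclei and sucrose gradients served to recover fragments of 100 to 500 bp. CASAVA 1.8 and mm9 are named in the submitters' processing notes; for the aligner and the hotspot caller, a name was not given in the sources used here. Per the file headers, hotspots were listed per library. The maximum and average tag densities are, as deposited, a coverage signal of unstated scale; within a library every maximum is a whole multiple of 1 step (within 0.05 step), read here as 1 tag. Per the file headers, the authors' caller also gave every hotspot a z-score, a score of its enrichment whose calculation is not stated. It also gave a p-value, likewise as deposited by the authors, and neither entered a comparison.

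Hotspots on chromosomes 1 to 19 and X overlapping by at least 1 bp were merged. A region's value is the highest maximum density of its hotspots in a library, as log2(density + 1) centred on the library's median over regions called in all 6 libraries. Those regions were tested together with limma 3.58.1 (R 4.3.3, with mean-variance trend and Benjamini-Hochberg adjustment). That step was also run on simulated data, where noise beyond counting was set equal for all regions and libraries. The simulated run does not measure the error rate of the calls in these data. Fold changes understate changes of weak regions. Where a call is missing, the density is unknown. No pair of replicates agreed within sampling noise (mean squared z between 2.18 and 5.73, with nominally 1 for noise alone), so none was counted as a duplicate. The z used maximum heights of regions called in all 6 libraries, for which the value of 1 need not hold. It cannot show whether replicates came from separate animals. Python 3.11.15 with numpy 2.4.6, pandas 2.3.3 and matplotlib 3.10.9 made the tables and plots.

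The window and its sites were chosen with earlier results of these data known. Sites printed in full by rule are those past the threshold, the 3 densest, those called in all libraries of 1 group only, and those at the window's edges; sites 4, 5, 7, 9, 11, 13 and 19 and the weak sites were added after their values were seen. Gene positions, motifs and the sites of other genes of the growth hormone axis were planned but not analysed here, since no genome or annotation of the files' build was used. No sequence is printed for the same reason.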

Additional observations from a re-analysis of the deposited data

How the results depend on the processing

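Rebuilding the regions without each library, and leaving out each library for the counts of calls, were added once the data had been seen; the other alternatives were not. Sites 1 and 14 kept direction and call in 24 of 24 alternatives and site 6 in 23 of 23, with log2 fold changes from -1.55 to -1.06, -2.57 to -1.85 and -2.02 to -1.43. Site 17 lost its call in 10 of 24. The number of fallen sites ran from 3 to 5 under all alternatives, with 11 to 17 regions of the window tested. The 5 with uncalled libraries set to their own lowest listed density include sites 2 and 7, where the filling fixes the direction. The 5 without fasted replicate 2 and with regions rebuilt include the middle hotspot of site 5. The number of risen sites, 0 as reported, was 1 without the mean-variance trend, 1 with quantile normalization (site 11 in both) and 1 with regions called in at least 3 libraries and uncalled libraries set to their own lowest listed density (site 10). Site 5, at 0.03, turned to -0.79 without fasted replicate 2 with regions rebuilt, since that fit splits the site and the value is that of its middle hotspot. Over all shared regions, 2921 higher became 1946 with no centring, and with only the denser 50% of regions tested 1325 were higher and 1413 lower; leaving out each library gave 1976 to 3237 higher and 2021 to 2773 lower. Sites called in all fed and no fasted libraries numbered 1 to 2 on leaving out each library (2 without fasted replicate 1 or fed replicate 1). The difference in called sites, -3 (fasted minus fed), ran from -4.17 to -2.17. Libraries with the same number showed no shared deviation from their group means (r = -0.07, -0.03 and -0.17), and the replicate block, with 4 fallen and 0 risen sites and 2535 higher and 2539 lower regions in all, changed no call at a site. The weak sites 3, 8, 15, 18 and 20 rest on 31 to 65 tags in the libraries that called them. Those heights carry larger relative counting errors than those of higher sites. The fasted heights at site 14 rest on similar numbers (40, 67 and 36 tags). A missing call has no tag count, and the part of counting error in it was not tested.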
